A study of Bos taurus with 12 samples.

Results

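The regions described here are short stretches of the cattle genome at which every one of 12 MBD-seq libraries had a peak and at least 1 library had a very high pileup. Peaks of the 12 single-library lists that shared 1 bp or more on chromosomes 1 to 29 were joined. The regions were selected on the number of lists, the width and the pileup. A joined region was kept when it held a peak from all 12 lists, was under 1000 bp wide and had at least 1 peak with a pileup of 100 or more. Regions that started in 6 windows of 1 Mb with dense peaks, on chromosomes 1, 3, 8, 14 and 27, were left out. Of 74459 joined regions, 1875 (2.52%) were kept, which was 59.1% of the 3174 regions with a peak in all 12 lists. They covered 1023 kb together. The windows left out held 448 more regions that met the other criteria, and 468 regions outside the windows met them except for their width. The 317 regions that met every criterion but had a highest pileup under 100 are called the lower regions below and served for comparison.

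MBD-seq captures double-stranded DNA with the methyl-CpG binding domain of an MBD protein, so that fragments with methylated CpG sites are retained and sequenced. Elution in steps of salt concentration divides the captured DNA by the density of its methylated CpG sites. In mammalian muscle, as in other somatic tissues, most CpG sites outside CpG islands are methylated, and much of this methylation lies in repeated sequence. The pileup of a MACS2 peak is the number of tags, extended to the fragment length, that cover its summit.

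The DNA came from longissimus muscle of Angus steers of about 12 months, chosen for low shear force (tender beef) or high shear force (tough beef). No treatment was applied, and the labels give tenderness as the difference between the groups. In the study's measurements the tender and tough groups also differed in crude fat content, which cannot be told apart from tenderness here. Each capture was eluted in 3 steps that the study calls the high, medium and low methylated part, which gave 6 groups of 2 libraries: HTE, MTE and LTE of tender beef and HTO, MTO and LTO of tough beef. The sources disagree on which salt concentration released which part, so high, medium and low are used here as the names of the libraries, and every order of levels rests on those names. Only 2 animals stood for each kind of beef, whole muscle was used, and peaks were called without an input library. After duplicate removal the libraries held 3677473 to 7981292 tags. At each level a larger share of the mapped tags was removed in both tough than in both tender libraries. At the medium level 6589423 of 11889327 mapped tags were kept in MTE_1 and 6886676 of 12635437 in MTE_2. In MTO_1 it was 6010993 of 14981895 and in MTO_2 5969045 of 13439772. The libraries differed in depth by level, with the 4 high libraries below the other 8.

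The highest pileup of the 12 libraries, the value that chose the regions, was 101 to 405 tags over the 1875 regions, with a median of 221. It was 200 or more in 1247 regions (66.5%). Counted in steps of 50 tags, the regions that met every other criterion numbered 201 and 116 below the limit and 165, 463, 755, 387 and 100 from 100 up to 350, with 5 above. The distribution therefore had a low mode under 50 and a high mode between 200 and 250, and few regions lay near the limit. Just inside it were chr13:1099-1933 and chr25:10001031-10002001 (bosTau8), both with a highest pileup of 101, and just outside it were chr9:39498-40174 and chr9:65965737-65966382, both with 99.

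**Figure D1:**
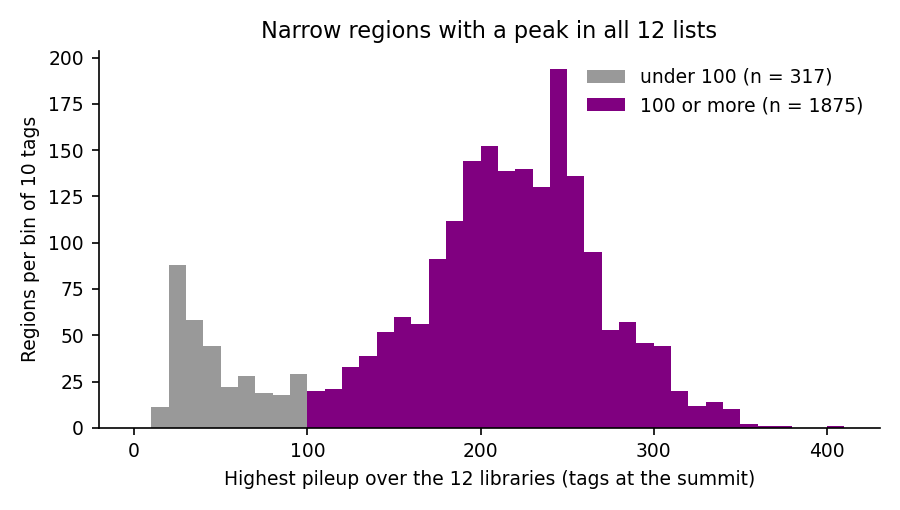
Histogram of the highest pileup over the 12 libraries (tags at the summit, bins of 10 tags) for the regions under 1000 bp with a peak in all 12 lists outside the windows left out. The 1875 regions at 100 or more form a broad mode around 200 to 250 and the 317 lower regions a separate mode under 50.

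The very high pileup was not owed to a single library in most regions. A pileup of 100 or more was reached in a median of 11 of the 12 libraries, in all 12 by 594 regions and in 1 library only by 16. The lowest of the 12 pileups had a median of 87, and the highest was a median of 2.49 times the lowest. The region with the highest mean over the 12 libraries was chr24:56942803-56943387, 585 bp wide. Its pileup was 355 and 385 tags in tender (HTE) against 405 and 403 in tough beef (HTO) at the high level, 297 and 284 against 324 and 347 at the medium level, and 221 and 236 against 309 and 268 at the low level. In tags, every high library stood above every medium library, and medium and low libraries overlapped through LTO_1. Within each level both tough libraries exceeded both tender libraries. These tags lay near the limit that the fragment length of each library sets, which is given below.

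The other 5 regions of highest mean were chr24:56951573-56952079, chr22:53643145-53643849, chr26:17971600-17972192, chr6:114726935-114727672 and chr6:89211447-89211823. Their mean level was 9.61 to 9.68 on the scale log2 of multiples of the genome-mean pileup, against 9.73 for the first and a median of 8.77 over the 1875 regions. This scaled pileup divides the tags at the summit by the mean pileup of the library over the genome, from its tags and fragment length. Near the ceiling described next it still depends on the depth of the library. Of these 6 regions, 2 lay within 10 kb of each other on chromosome 24.

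Since at most 1 tag per position and strand was kept, the pileup cannot exceed 2 times the fragment length d, which was 146 to 203 bp in these libraries. The ceiling was thus 292 to 406 tags. In chr24:56942803-56943387 the pileup was between 98.2% and 99.8% of it in the 4 high libraries, between 94.6% (MTE_1) and 100% (MTO_1) in the medium ones, 71.3% and 80.3% in LTE_1 and LTE_2, and 93.6% and 91.8% in LTO_1 and LTO_2. In the high and medium libraries there was almost no room for a higher value at this place. The ceilings were 358 and 392 in HTE against 406 in both HTO libraries, and 314 and 292 in MTE against 324 and 350 in MTO. At this place the excess in tags of tough over tender and of high over medium libraries therefore cannot be told apart from the ceilings. Over all 1875 regions the median pileup was lowest in LTE_1, at 30.0% of the ceiling, and highest in MTO_1, at 65.1%, while the medians of the lower regions were 4.43% to 9.25%. The pileup was at least 50% of the ceiling in all 12 libraries in 164 regions and at least 95% in some library in 11. Differences between libraries are compressed where the ceiling is near. At the ceiling the scaled pileup is set by depth alone, and a library with fewer tags has the higher value. The high libraries held fewer tags than the others, and at the high and medium levels the tough libraries held fewer than the tender ones. At the low level both tough libraries held more. The part of depth in the level order and in tough minus tender was not tested.

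**Figure D2:**
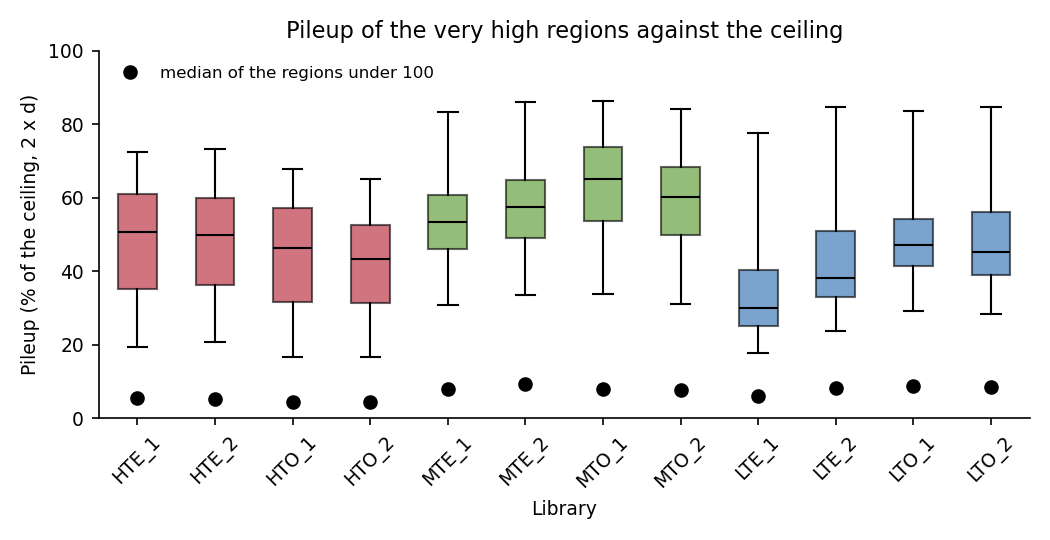
Pileup of the 1875 regions as a percentage of the ceiling of 2 x d, by library. Boxes show the quartiles and median, whiskers the 5th and 95th percentiles, red for high, green for medium and blue for low libraries. Black points are the medians of the 317 lower regions, which lie between 4.43% and 9.25%, far below each box.

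A high pileup did not come with a high fold enrichment. MACS2 divides the pileup by a local background, taken here from up to 10000 bp around the summit. The median fold enrichment of the 1875 regions was 2.62 in LTO_1 to 3.20 in HTE_1, against 8.93 to 13.4 in the lower regions. The local background recovered from both values had a median of 31.7 to 67.0 tags by library, against 0.65 to 1.07 in the lower regions. Within each library the median rank of the regions among all its peaks was percentile 77.3 to 93.7 by pileup and percentile 10.9 to 27.9 by fold enrichment. These contrasts were in part set by the selection, because a small pileup passes peak calling only over a low local background. The lower regions had a small pileup by definition and were still called in all 12 lists. The contrasts are therefore a description of the regions. The median −log10 q of the peak was 14.3 to 36.2. The very high tags thus lay within neighbourhoods that were high themselves. In chr24:56942803-56943387 the fold enrichment was 1.59 to 2.04 over the 12 libraries.

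The regions were 226 to 999 bp wide, with a median of 514. The narrowest was chr1:153205016-153205241, and 2 regions shared the greatest width, one of them chr5:21424389-21425387. Every list gave exactly 1 peak in 1567 regions (83.6%), close to the 83.0% of the lower regions. The region with the most peaks, chr10:68741594-68742588, held 24 over the 12 lists. The summits of the 12 libraries, taken from the highest peak of each, had a median standard deviation of 37.2 bp, against 24.4 bp in the lower regions. It was 20 bp or less in 18.3% of the regions and in 44.2% of the lower regions. Within a level the median was 13.9 bp in the high, 16.7 bp in the medium and 27.8 bp in the low libraries. The summits spread most in chr4:41474717-41475702, with a standard deviation of 326 bp and 23 peaks.

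The regions lay in runs. Of 1875 regions, 1667 (88.9%) had another such region within 10 kb, against 28 (8.83%) of the 317 lower regions with another lower region so near. There are fewer lower regions, which lowers that share by itself. With regions up to 10 kb apart counted as 1 run, there were 523 runs, of which 208 held 1 region and 30 held 10 or more, the latter with 554 regions (29.5%). The gap between neighbours in a run had a median of 924.5 bp. The distance from centre to centre had a median of 1410 bp. Chromosomes 7, 4 and 8 held the most regions, 155, 149 and 144. Per 10 Mb chromosome 29 held 18.8, chromosome 25 held 15.2 and chromosome 12 held 2.19. Of the 97 regions of chromosome 29, 58 were in 1 run. In runs per 10 Mb it had 1.75, against 3.97 on chromosomes 8 and 27. These counts are without the windows left out.

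The runs with the most regions were chr5:114106219-114241685 with 68 in 135467 bp, chr29:30225846-30385952 with 58 in 160107 bp, chr7:56568827-56622088 with 33 and chr7:105824478-105903915 with 32. Neighbours were alike in their levels. The standard deviation of the difference between high and low libraries (log2 scaled pileup) was a median of 0.161 within a run and 0.672 over all regions. Runs far apart could share a profile. The runs on chromosome 5 and at chr11:74247668-74301730 had median levels of 8.67 and 8.57 in high, 8.93 and 8.92 in medium and 8.52 and 8.51 in low libraries. At chr6:17957586-18015519 and chr22:2865864-2892896, on the other hand, both runs had 9.49 in high libraries, 9.03 and 9.07 in medium and 8.18 in low.

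**Figure D3:**
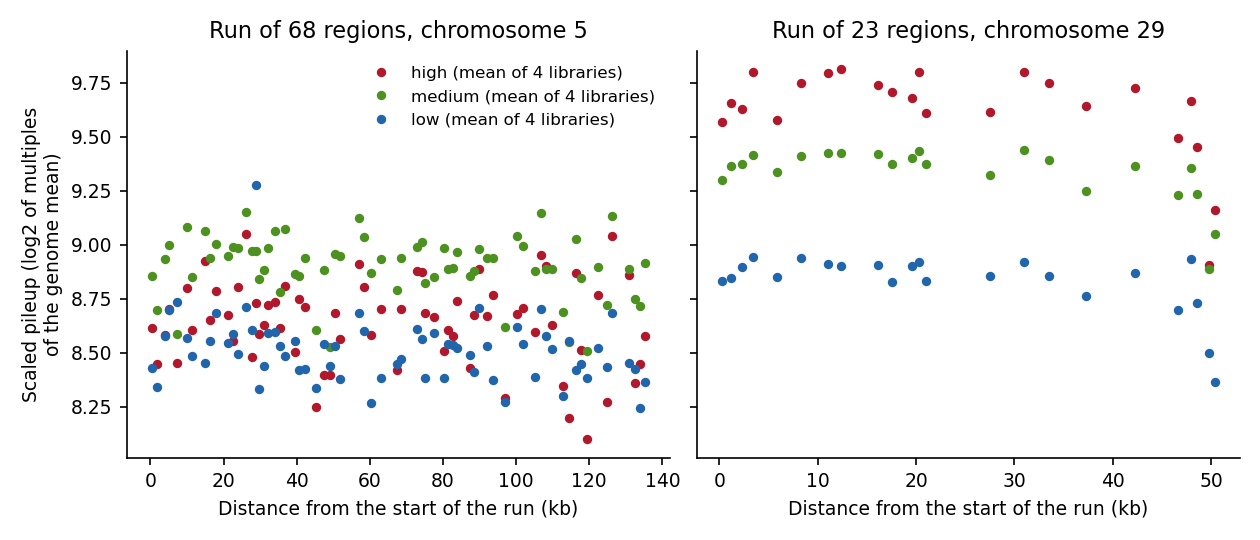
Scaled pileup (log2 of multiples of the genome mean, mean of the 4 libraries of a level) of each region against its distance from the start of the run, for the run of 68 regions on chromosome 5 and the run of 23 on chromosome 29. In the first the medium libraries are mostly highest and high and low ones overlap, and in the second high, medium and low libraries keep separate levels over most of the run.

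The order of the 3 methylation levels was compared next, as a description without a test, because the pileups had chosen the regions. The median log2 scaled pileup of the regions was 9.18 and 9.07 in the tender and 9.35 and 9.24 in the tough libraries of the high level. It was 8.72 and 8.76 against 9.14 and 9.04 at the medium level and 8.08 and 8.11 against 8.27 and 8.35 at the low level. The 4 low libraries were below the other 8, and the high and medium libraries overlapped. The high libraries exceeded the low ones by a median of 1.01 on the log2 scale, against 0.315 in the lower regions, and the medium ones by 0.333, against −0.177. Medium exceeded low libraries by 0.71, against 0.581. With each library centred on its median over all 3174 regions, these medians of the regions were 0.14, 0.144 and 0.0253. The regions described here made up 59.1% of those that set that median. On the scale of fold enrichment they were 0.164, 0.0726 and 0.0964.

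Region by region, all 4 high libraries were above all 4 low libraries in 1392 regions (74.2%), where 64.7% of all 3174 regions were so and 35.0% of the lower regions. All 4 medium were above all 4 low libraries in 1545 (82.4%, all regions 77.1%), and all 4 high above all 4 medium libraries in 568 (30.3%, all regions 26.9%). The opposite orders were less frequent. All 4 low libraries were above all 4 high ones in 179 regions (9.55%, all regions 11.6%) and all 4 medium above all 4 high ones in 282 (15.0%, all regions 19.7%). All 4 low were above all 4 medium ones in 45 (2.40%, all regions 3.31%).

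By the mean of the 4 libraries, 1366 regions (72.9%) had the order high, medium, low, 196 (10.5%) medium, high, low, 188 low, medium, high and 115 (6.13%) medium, low, high. The remaining 2 orders, with 10 regions, put the medium level lowest. In the lower regions the order high, medium, low held in 30.9%. Tender and tough libraries, each ordered alone, gave the same order in 1593 regions (85.0%), and in 199 (62.8%) of the lower regions. Of 315 runs of 2 or more regions, 272 (86.3%) had a single order throughout. The order high, medium, low was found on all 29 chromosomes and the order low, medium, high on 25.

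Since the ceiling differs with d, the share of the ceiling gave another picture. As a percentage of 2 x d, the medium level was highest in 1585 regions, the low level in 276 and the high level in 14. The order of the levels therefore depends on whether tags are divided by the genome mean of the library or by its ceiling.

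The regions in which the high level led most, against the mean of the other 8 libraries, were chr6:5535799-5536596 and chr6:8895886-8896593. The first had a pileup of 165 and 200 (tender) and 142 and 163 (tough) at the high level, 94 and 94, and 85 and 78 at the medium level, and 25 and 29, and 30 and 29 at the low level. Its scaled level was 2.1 (log2) above that of the other libraries, and the 3 levels did not overlap in tags. It reached the pileup limit of the selection in high libraries only, so it was kept through the level that led. The second region reached the limit at all 3 levels.

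The medium level led most in a pair of neighbours, chr20:55752512-55753336 and chr20:55751741-55752391. The first had 104 tags in both tender and 73 and 79 in the tough libraries of the medium level. At the high level it had 31 and 60, and 32 and 36, and at the low level 40 and 42, and 58 and 69. The lead of the medium level was smaller, at 0.89 and 0.86 (log2) for this pair. Both regions reached the pileup limit of the selection only in tender libraries of the medium level. They were therefore kept through the level that led, and their lead and their tender excess at that level are given as a description.

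The low level led most in chr6:6568037-6568515 and chr20:72028921-72029828. The first had 95 and 120 tags in tender and 87 and 102 in tough beef at the low level, 59 and 46 against 26 and 22 at the medium level, and 23 and 26 against 16 and 10 at the high level. It was 1.77 (log2) above the other libraries in the low level and had the lowest mean of all 1875 regions, 6.75. All 4 low libraries were above all 8 others. This region and chr20:72028921-72029828 reached the pileup limit in low libraries only, so they too were kept through the level that led.

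The comparison that the study was made for is that of tough with tender beef. The rule used the highest of the 12 pileups whichever beef it came from, and a region near the limit that passed through 1 group only had to differ. That highest pileup came more often from tough beef. It lay in MTO_1 in 504 regions, MTO_2 in 485, HTO_1 in 243 and LTO_1 in 237. The tender libraries with the most were HTE_2 with 221 and MTE_1 with 108. The contrast of tough minus tender with the lower regions thus draws in part on the values that chose the regions. The comparison was fitted with limma on the log2 scaled pileup of all 3174 regions, with adjusted p-values over all of them. A single region tested alone with 2 libraries against 2 could not go below an exact permutation p of 0.33. The p-values rest on 1 estimate of the spread between the 2 libraries of a group for each region. It was shared by all 6 groups and moderated over the regions. They therefore do not measure the spread between the 2 animals of a kind of beef at 1 level alone. In whole muscle, a different mix of cells and a different methylation per cell cannot be told apart. The depth and the share of duplicates, given above, also differed between tough and tender libraries and cannot be told apart from tenderness.

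At the medium level 1277 of the 1875 regions (68.1%) were higher in tough beef and 59 (3.15%) lower at a limma adjusted p under 0.05, where 54.9% and 4.54% of all 3174 regions were called. At the high level 351 (18.7%) were higher and 9 lower, against 16.6% and 1.01% of all regions. At the low level 565 (30.1%) were higher and 105 lower, against 24.9% and 6.93%. The median difference, tough minus tender, was 0.183 in high, 0.351 in medium and 0.171 in low libraries (log2), against 0.176, 0.278 and 0.136 over all 3174 regions and 0.07, −0.003 and 0.087 over the lower regions. The median standard error of a region was 0.104. The median over all regions was thus over 0.1 at each level, and the regions described here made up 59.1% of those that set it.

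The 2 tough libraries were both above the 2 tender ones in 1276 regions of the high level and both below in 33 (all regions 63.0% and 3.59%). The counts were 1473 and 181 at the medium level (all regions 67.2% and 15.2%) and 58.0% and 7.73% of the regions at the low level (all regions 49.2% and 10.3%).

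Set against this shift, the split of directions changed. With each library centred on its median over all regions, 340 regions were higher and 379 lower in tough beef at the medium level (all regions 14.9% and 26.7%), 4 and 10 at the high level (0.284% and 0.851%) and 63 and 314 at the low level (2.87% and 18.8%). The medians became 0.0585, 0.0231 and −0.0453. On the scale of fold enrichment, limma called 42 regions at the medium, 3 at the high and 4 at the low level, with medians of −0.00153, 0.00242 and −0.00922, so the ratio of the summit to its neighbourhood differed little between tough and tender beef in the median. No direction for the whole set of regions holds over these scales.

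Leaving out 1 library changed the counts at the scale of the genome mean, in fits where the remaining library of a group was assumed to vary like the other groups. At the high level 360 calls became 11 without HTE_2, 13 without HTO_1, 583 without HTO_2, 210 and 212 without MTE_1 and MTE_2, and 553 and 552 without LTO_1 and LTO_2. At the low level 670 became 148 without LTE_1. At the medium level 1336 became 945 to 1367.

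**Figure D4:**
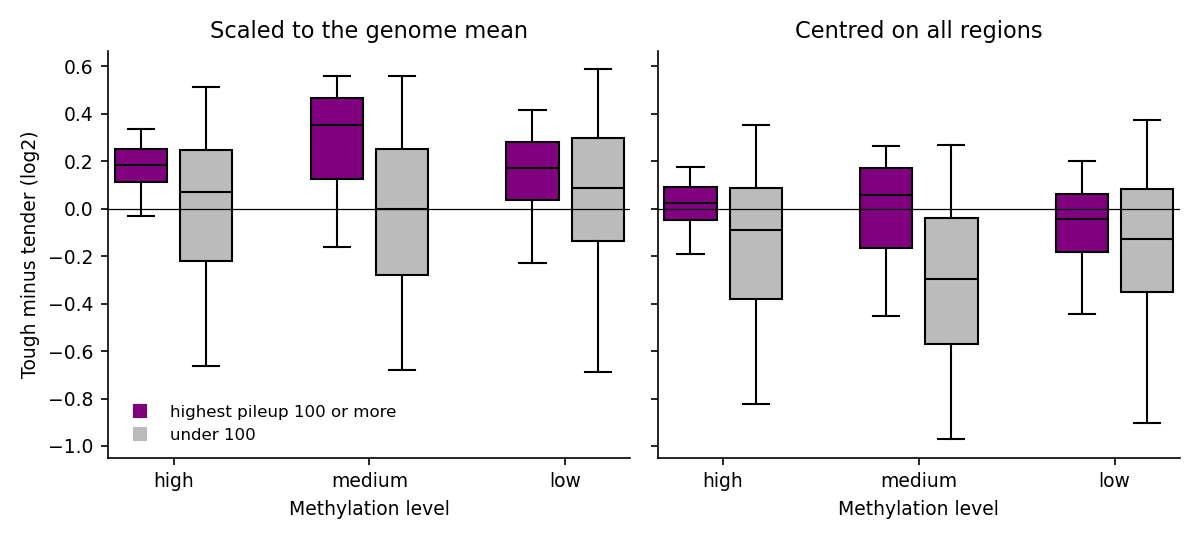
Tough minus tender (log2 scaled pileup, limma) by methylation level for the 1875 regions (purple) and the 317 lower regions (grey), scaled to the genome mean on the left and centred on the median of all 3174 regions on the right. Boxes show quartiles and median, whiskers the 5th and 95th percentiles. The purple medians of 0.183, 0.351 and 0.171 on the left move to 0.0231, 0.0585 and −0.0453 on the right.

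The regions did not move together at the medium level, and their difference varied with the order of the levels. The MTE and MTO libraries that give this difference also entered the order, so the split is a description. In the 1366 regions with the order high, medium, low, the median pileup was 166 and 167 in MTE and 226 and 223 in MTO, and the median difference was 0.416, with 1236 regions called higher and 2 lower by limma (all 3174 regions 54.9% and 4.54%). Centred on all regions, the median was 0.124, with 340 called higher and 38 lower (all regions 14.9% and 26.7%). In the 196 regions with the order medium, high, low, it was 190 and 184 in MTE and 184 and 190 in MTO, with a median difference of 0.0346 and 9 called higher and 1 lower. Centred, the median was −0.258, with 0 called higher and 123 lower. The medians of the 2 kinds of beef were apart in the first set and overlapped in the second. In the 115 regions of the order medium, low, high the median difference was −0.074, and in the 188 of the order low, medium, high −0.0709, with 30 called higher and 49 lower in the latter. Centred, these medians were −0.366 and −0.363, and 0 regions of either order were called higher and 103 and 109 lower.

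Across the 1875 regions the difference between high and low libraries, which holds no medium library, had a Pearson r of 0.83 with tough minus tender at the medium level, against 0.37 over the 317 lower regions. Regions of a run are not independent, and all share the 12 libraries. At the low and the high level r was 0.67 and 0.30, but there the measures share libraries. Centring moves all regions by the same amount and so cannot change these correlations. They are given for the scaled pileup only, not for fold enrichment or a scale corrected for the ceiling. The lower regions had a median pileup of 18 to 29 tags by library, where small counts add spread.

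**Figure D5:**
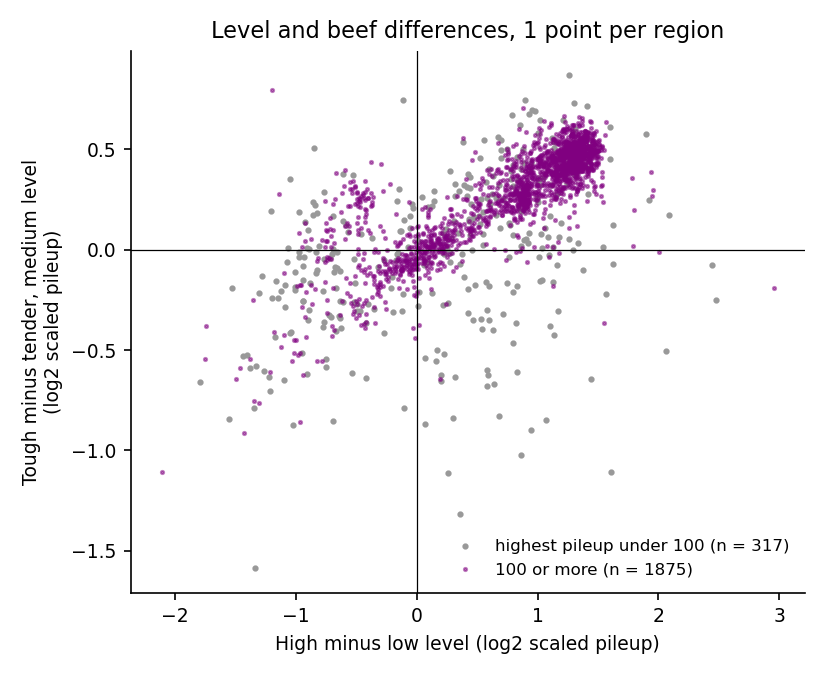
Tough minus tender at the medium level against high minus low level (both log2 scaled pileup), 1 point per region, for the 1875 regions (purple) and the 317 lower regions (grey). The purple points rise together, r = 0.83, with a small set of low-led regions above 0 on the vertical axis, which is not centred.

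The regions led by the low level were called in both directions at the medium level on the scale of the genome mean, and only as lower after centring. The other scales were not split by order. Those called higher in tough beef, which were looked up after their values were seen, lay among others at chr22:42398265-42426890, with 5 of the 12 regions of its run, and at chr27:26373168-26385578, with 4 of 8. Their median differences at the medium level were 0.317 and 0.285, and centred 0.0248 and −0.00778, with 0 called higher. Of the 59 regions called lower, 10 were in the run of 58 on chromosome 29, with a median of −0.267, and 6 were in a run of 8 at chr13:83062262-83073837, with a median of −0.334. Centred, these medians were −0.56 and −0.626, with 10 and 6 called lower.

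Among the regions whose tender and tough libraries did not overlap, the tough excess was highest at all 3 levels in chr12:90803831-90804718. The pileup was 13 and 12 in tender against 25 and 40 in tough libraries of the high level, 53 and 48 against 85 and 88 of the medium level, and 30 and 39 against 98 and 114 of the low level. Both tough libraries were above both tender libraries at each level. A pileup of 100 or more was reached in 1 library only, LTO_2, so the region was kept through tough beef and its difference is given as a description, with no test. The log2 difference was 1.56 in high, 0.794 in medium and 1.35 in low libraries (SE 0.194 for each), and centred 1.40, 0.502 and 1.13.

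The tough deficit was largest at the high and medium levels in chr6:6568037-6568515, the low-led region given above. The log2 difference was −0.727 (SE 0.201, limma adjusted p = 0.0088) at the high and −1.11 (adjusted p = 1.31e-06) at the medium level, and −0.46 (adjusted p = 0.0632) at the low level. Centred, it was −0.887 (limma adjusted p = 0.0326), −1.40 (adjusted p = 3.75e-05) and −0.675 (adjusted p = 0.0254), so that the low level was called only after centring. At the low level the deficit was largest in chr1:154659524-154660031, with 187 and 197 tags in LTE against 151 and 160 in LTO. That difference was −0.583 (SE 0.125, limma adjusted p = 0.000218), and at the medium level, with 163 and 154 tags in MTE against 77 and 97 in MTO, it was −0.858 (adjusted p = 4.14e-09). Centred, the differences of this region were −0.799 (limma adjusted p = 0.000112) at the low and −1.15 (adjusted p = 6.1e-07) at the medium level.

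Whether tough minus tender differed between the 3 levels was tested by the limma interaction. It was called in 23 of the 1875 regions (1.23%), where 1.70% of all 3174 regions were called. The fit takes the 12 libraries as independent, although the 3 eluates of a capture come from the same animal. With the replicate number as a block the count was 5, at a block correlation of −0.0395. It is not known whether these numbers match animals between levels, so the block cannot show what sharing an animal does. None of the 20 named regions with a very high pileup was among the 23. The limma count was 146 after centring and 0 on the scale of fold enrichment, where 133 regions had an unadjusted p under 0.05 against 459 at the scale of the genome mean. Leaving out 1 library gave 246 without LTO_2, 178 without LTE_2, 0 without LTE_1 (405 at an unadjusted p under 0.05), 1 without each medium library, 2 without HTE_2 and 4 without HTO_2, and 19 to 26 without the others.

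Peaks called by the authors on the merged replicates were found at all 1875 regions in all 6 merged lists. The merged pileup was a median of 0.657 times the sum of both replicates, against 0.830 in the lower regions. By group the median was 0.667 (HTE) and 0.673 (HTO) at the high level, 0.643 (MTE) and 0.609 (MTO) at the medium level, and 0.701 (LTE) and 0.662 (LTO) at the low level. The median share of the merged ceiling was 66.4% (HTE), 60.6% (HTO), 72.8% (MTE), 78.0% (MTO), 52.2% (LTE) and 64.4% (LTO). The merged lists were called with another MACS2 version and genome size. The cause of the ratios was not tested. Against the higher of both replicates the merged pileup was a median of 1.25 times.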

How the data were processed

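MBD-seq peak lists of 12 libraries and of 6 merged groups were used. The authors filtered reads (SOAPnuke), mapped them to bosTau8 (BWA, 0.7.7 in the submitters' processing notes) and retained unique alignments. Peaks were called by the authors with MACS2 at a q of 0.01 without an input and with 1 tag per position, with version 2.1.1.20160309 for single and 2.1.0.20150731 for merged libraries, per the file headers. The deposited pileup is a signal that was not divided by library size. The deposited fold enrichment is a ratio of the pileup to its local background. The deposited −log10 p and q are the authors' values.

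The pileup was divided by tags after filtering × d / 2600000000 bp, and log2 values, with the highest peak standing for a library, were fitted with limma 3.58.1 (R 4.3.3; 6 groups, trend, Benjamini-Hochberg, threshold 0.05). Joining used Python 3.11.15 and pandas 2.3.3, tested on simulated data against bedtools. limma was tested on simulated data too. The regions and comparisons were chosen with earlier results of these data known. Named regions are the 6 of highest mean, the 2 most led by each level, the highest and lowest tough minus tender per level among regions without overlap, those at the limits, and the extremes of width, peaks and summit spread. Depth of 3677473 to 7981292 tags limits small pileups, and the ceiling limits large ones. Alternatives were other scales, centring, a pseudocount of 1, mean over peaks, a replicate block and each library left out. Same-numbered libraries of different levels deviated together with r of −0.098 to 0.25 over all regions, so the numbers were not taken as pairs. Sequence, genes, CpG density and repeats at these positions were not analysed here.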

Additional observations from a re-analysis of the deposited data

Results flagged for a closer look

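In chr20:72028921-72029828 the pileup in MTO_1 was 47, apart from 79, 76 and 74 in the other 3 medium libraries. In chr13:1099-1933 the pileup in LTE_1 was 67, apart from 101, 97 and 96 in the other low libraries. Each stood out by Dixon's test on 4 libraries, which flags about 1 in 20 groups by chance, and 63 groups were tested. The X chromosome, which the comparisons do not use, held 90 regions that met the rest of the rule, of 152 with a peak in all 12 lists. Their highest pileup ranged from 103 to 334.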

How the results depend on the processing

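The number of regions was 1748 with peaks up to 100 bp apart joined, 1761 with −log10 q of at least 5, 2323 with no window left out and 1874 to 2209 without 1 library. Divided by tags alone, 1495 regions were called at the high level and the tough minus tender medians were 0.299 (high) and 0.504 (medium). On fold enrichment the calls were 3, 42 and 4 at the high, medium and low level with medians of 0.00242, −0.00153 and −0.00922. Centred, they were 14, 719 and 377 with medians of 0.0231, 0.0585 and −0.0453. A correction for the ceiling, −ln(1 − pileup / (2 x d)) divided by mapped tags, was chosen after seeing the data. It gave 12, 824 and 224 calls with medians of −0.0628 (high) and 0.102 (medium), and centred as well 21 (high) and 242 (low) calls with medians of 0.0155, 0.118 and −0.0425. Without 1 library the calls were 11 to 583, 945 to 1367 and 148 to 728, and the medians 0.127 to 0.242, 0.299 to 0.401 and 0.127 to 0.210.

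The replicate block (duplicate correlation) left 360, 1336 and 667 calls and changed no level's count by over 1.5 times, but 5 in place of 23 regions were called for a difference between levels. The alternatives for that count were added after seeing the data. It was 617 divided by tags alone, 0 on fold enrichment, 146 centred, 51 with the mean over peaks, 187 corrected for the ceiling, 331 with both, and 0 to 246 without 1 library. With the replicate block the high minus medium, high minus low and medium minus low medians were 0.292, 1.03 and 0.657.

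High minus medium was 0.621 divided by tags alone, 0.0726 on fold enrichment, 0.144 centred and 0.148 corrected for the ceiling. High minus low was 1.36, 0.164, 0.14 and 0.736 in that order. Medium minus low was 0.0964 on fold enrichment and 0.0253 centred. Without 1 library these were 0.259 to 0.408, 0.962 to 1.06 and 0.629 to 0.786. With 1 value per run, also chosen after seeing the data, they were 0.342, 1.08 and 0.763. The summit spread was 34.5 to 38.1 bp without 1 library. The merged ratio was 1.25 against the higher replicate. The cause of these changes was not tested.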
